A study of Drosophila melanogaster with 3 samples.

Results

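The 10 genes described here act in the mesoderm and muscle of Drosophila melanogaster, and were followed through a map of Stwl binding in whole embryos. They were a fixed list of symbols, 10 of the 13945 protein-coding genes on the main chromosome arms of the Ensembl BDGP6 annotation, and the rule that lists them uses no measured value. Of the list, 7 genes are regulators (Mef2, tin, bap, bin, how, Hand and nau) and 3 are structural muscle genes (Mhc, Act57B and Mlp84B). A summit, the highest point of a peak, was assigned to a gene when it lay inside the gene or within 10 kb of one of its transcription start sites (TSSs).

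Chromatin immunoprecipitation and sequencing (ChIP-seq) was done with an antibody against GFP, per the labels, on whole embryos 0 to 10 hours old. The flies carry a transgene for Stwl with GFP at its C-terminus. Stwl is a nuclear protein with a MADF domain, best known from the female germline. All 3 samples are biological replicates of this 1 group, all carry the fusion, and chromatin was sheared by sonication to fragments of 200 to 800 bp. The data were peak lists in dm6 coordinates, namely 30000 peaks for each replicate, 30000 for the pooled reads, and the 7241 peaks that passed the irreproducible discovery rate (IDR), a filter on agreement between replicates. Signal values are those of the authors and have a separate scale in each list, so sites were compared between lists by rank, with rank 1 the strongest. Read depth was unknown, and binding in mesoderm cells cannot be told apart from binding in the other cells of an embryo.

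In the embryo the mesoderm forms under a cascade of transcription factors and splits into body wall muscle, visceral muscle and heart. The homeobox gene tin specifies heart and dorsal mesoderm, bap and the forkhead gene bin specify visceral mesoderm, and Hand, a basic helix-loop-helix factor gene, acts in heart and visceral muscle. The MADS-box factor Mef2 drives muscle differentiation, and nau encodes the fly relative of vertebrate MyoD. The how gene encodes an RNA-binding protein of the STAR family that acts on transcripts in muscle and tendon cells. Mhc encodes muscle myosin heavy chain, Act57B a muscle actin, and Mlp84B a muscle LIM protein of the Z-disc.

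The DNA under the strongest IDR summit is shown for 7 of the genes, leaving out Mef2 and Act57B, to let the sites be compared by eye. The lines below give 75 bases to either side of the summit from the Release 6 reference assembly of RefSeq, on the plus strand from 5′ to 3′. Capitals mark matches to any of the 10 motifs described further on, on either strand. For bap, which had no IDR summit, the line is centred on the median summit of the 3 replicate lists, a choice made after its values were seen. None of the lines overlaps a UTR or a coding exon.
tin, chr3R:21378704-21378854: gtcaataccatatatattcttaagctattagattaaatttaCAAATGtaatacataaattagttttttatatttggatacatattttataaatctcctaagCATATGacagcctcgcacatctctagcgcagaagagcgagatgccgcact
bap, chr3R:21386235-21386385: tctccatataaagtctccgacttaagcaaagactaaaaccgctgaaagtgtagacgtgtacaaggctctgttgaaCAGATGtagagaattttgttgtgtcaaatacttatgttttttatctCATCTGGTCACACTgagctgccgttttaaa
bin, chr3L:6989299-6989449: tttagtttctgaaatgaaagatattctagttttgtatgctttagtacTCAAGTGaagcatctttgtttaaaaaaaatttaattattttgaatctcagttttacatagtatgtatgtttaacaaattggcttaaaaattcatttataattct
how, chr3R:22072687-22072837: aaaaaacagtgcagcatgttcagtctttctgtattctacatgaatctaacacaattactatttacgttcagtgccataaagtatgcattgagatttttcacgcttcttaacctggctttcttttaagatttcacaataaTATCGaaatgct
Hand, chr2L:10298462-10298612: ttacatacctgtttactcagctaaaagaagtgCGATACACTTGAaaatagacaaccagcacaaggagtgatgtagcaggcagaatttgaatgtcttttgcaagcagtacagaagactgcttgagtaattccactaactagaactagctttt
nau, chr3R:23722068-23722218: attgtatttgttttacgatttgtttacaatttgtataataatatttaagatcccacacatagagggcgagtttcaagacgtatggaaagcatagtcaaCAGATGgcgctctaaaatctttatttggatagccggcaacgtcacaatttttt
Mhc, chr2L:16787697-16787847: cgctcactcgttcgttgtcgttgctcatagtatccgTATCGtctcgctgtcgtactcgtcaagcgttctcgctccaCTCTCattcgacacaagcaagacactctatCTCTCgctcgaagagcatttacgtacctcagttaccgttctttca
Mlp84B, chr3R:7108941-7109091: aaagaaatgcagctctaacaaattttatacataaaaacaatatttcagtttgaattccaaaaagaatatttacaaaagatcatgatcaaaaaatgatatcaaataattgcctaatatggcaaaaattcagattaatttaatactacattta
The Mhc site, inside an Mhc intron, was the richest in G and C at 49.7%, with a CGATA match and 2 GAGAG matches. The Mlp84B and bin sites were the poorest, at 21.2% and 21.9%, and the Mlp84B line holds no match to any of the 10 motifs. The bin line holds the Tinman motif TCAAGTG, and the tin line, from the promoter of tin itself, holds CATATG.

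Stwl summits lay near 9 of the 10 genes, yet at the promoters of 2. By the rule of 10 kb, 6 of 7 regulators and 3 of 3 structural genes had at least 1 IDR summit, beside 76.7% of all protein-coding genes. Within 500 bp of a TSS, 2 of 10 genes had one, Mef2 and tin, beside 42.1% of all protein-coding genes. No structural gene was among the 2. With widening distance the share came close to that of other genes, as the plot of shares by distance shows: 3 of 10 genes within 1000 bp beside 45.6%, 5 within 2000 bp beside 51.1%, 7 within 5000 bp beside 64.3%, and 8 within 10000 bp beside 76.1%, gene bodies not counted. No test was run on these counts, since the genes were listed with earlier results of these data known.

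**Figure D1:**
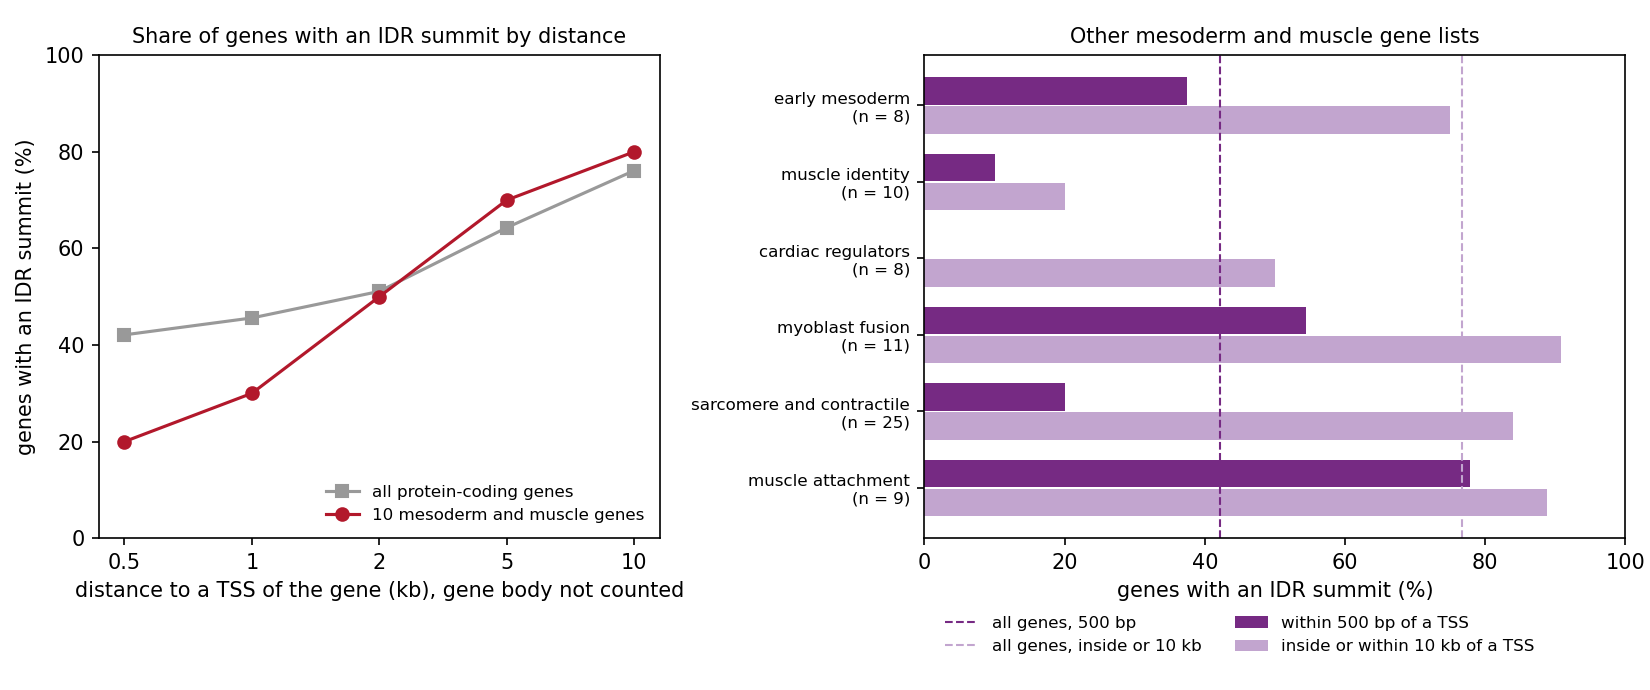
Left, the percentage of genes with an IDR summit (y axis) within a given distance of a TSS in kb (x axis) for the 10 mesoderm and muscle genes (circles) and for all protein-coding genes (squares). Right, the same percentage (x axis) for 6 other gene lists (y axis), within 500 bp of a TSS (dark bars) and inside the gene or within 10 kb (light bars), with dashed lines at 42.1% and 76.7% for all genes. The 10 genes lie below all genes at 500 bp and close to them from 2 kb on.

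In all, 28 IDR summits were assigned, 22 to regulators and 6 to structural genes. That is 10.9 summits per 100 kb of assigned region for regulators and 8.19 for structural genes, beside 9.20 over the summed regions of all protein-coding genes. Signal values ran from 207.1 to 1034 at regulators, with a median of 534.4, and from 232.9 to 811.0 at structural genes, with a median of 465.8. The median of all IDR summits was 416.0. These figures count every assigned summit, also those with another gene's TSS nearest. The assigned gene's own TSS was nearest for 7 of the 22 summits at regulators and 3 of the 6 at structural genes. The range of the structural genes lay inside that of the regulators, and the highest rank of any of the 28 summits was 564.

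Most assigned summits had a neighbour's TSS nearest, and this was more common still across all protein-coding genes. The nearest protein-coding TSS belonged to the assigned gene for 10 of 28 summits (35.7%) and to another gene for 18. Among the 18 were intron summits of how and Mhc, which lay inside the assigned gene. Across all protein-coding genes, the same rule made 30350 pairs of gene and summit, of which 23.2% had the gene's own TSS nearest. Of the 28 summits, 12 lay within 500 bp of the TSS of another gene, 2 within 500 bp of a TSS of the assigned gene, and 14 away from every protein-coding TSS. None of these 14 lay within 500 bp of the start of an annotated gene that codes for no protein. The same split was not counted over all IDR summits, so it cannot be called particular to the 10 genes. Counting a summit only for the gene with the nearest TSS left 5 genes (Mef2, tin, bin, how and Act57B), beside 38.3% of all protein-coding genes. The regions of the 10 genes hold the TSSs of 27 other protein-coding genes, and 14 of these, or 51.9%, carried an IDR summit at the promoter, here meaning up to 500 bp from a TSS, beside 42.1% of all protein-coding genes. The map of summits by distance shows that at Hand, nau, Mhc and Mlp84B every summit had another gene's TSS nearest.

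**Figure D2:**
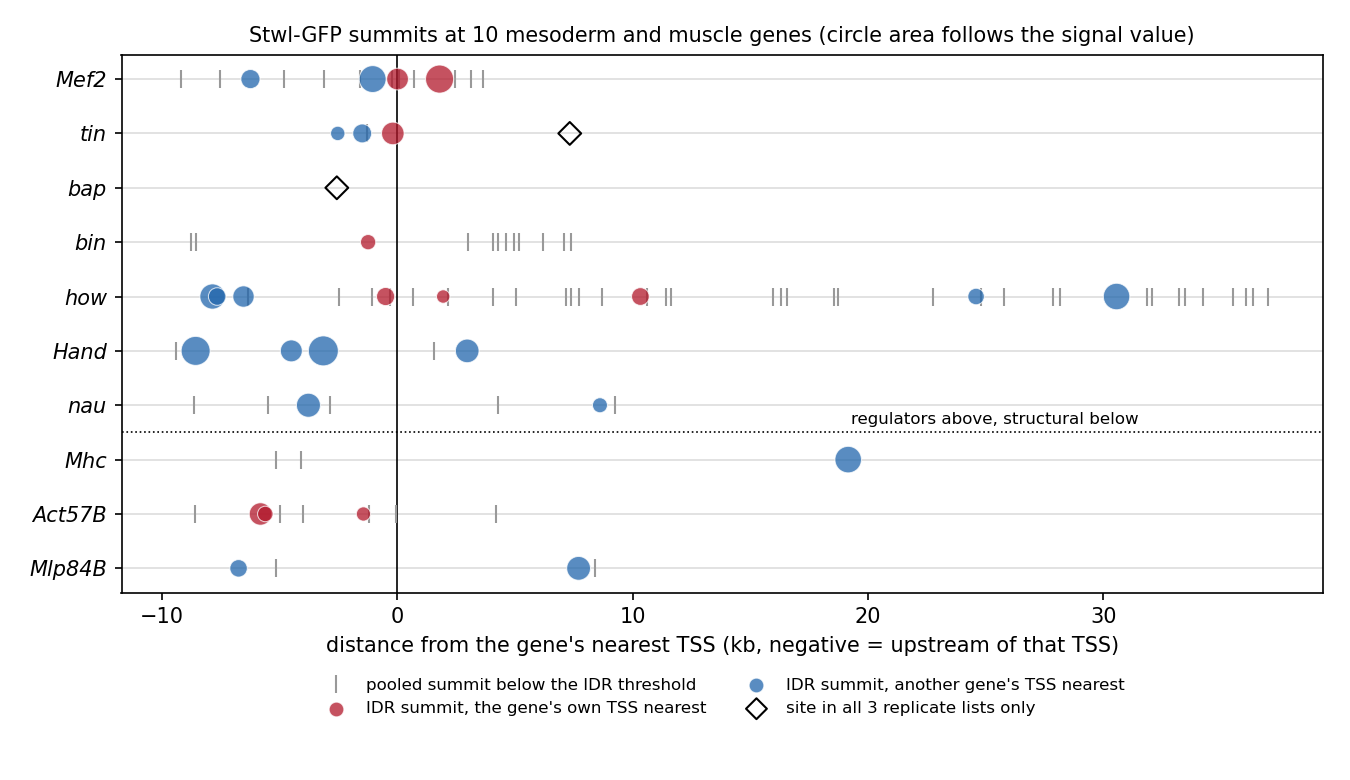
Summits at the 10 genes (y axis) by distance in kb from the nearest TSS of the gene (x axis, negative upstream). Circles are the 28 IDR summits, with area following the authors' signal value, in red where the gene's own TSS is nearest and in blue where another gene's is. Grey ticks are the 74 pooled summits below the IDR threshold, and the diamonds, drawn once for each gene, mark the 1 site between tin and bap that is in the 3 replicate lists alone. Circles lie close to the TSS at Mef2 and tin, and bap has none.

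Mef2 (FBgn0011656, 2R, 9913496 to 9958858, minus strand) had 4 IDR summits, and it was the gene with a summit right at a TSS. That summit, at 9958855, lay 3 bp from the TSS and in the 5' UTR, with a signal value of 543.3 and rank 2463. In replicates 1, 2 and 3 its signal values were 67.5, 53.7 and 420.0 and its ranks 3463, 5736 and 1901. The site ranked higher in replicates 1 and 3 than in replicate 2. The strongest Mef2 summit lay further inside the gene, at 9942974 and 1790 bp downstream of another Mef2 TSS, with a signal value of 906.9 and rank 824. Its ranks were 2499, 1142 and 611, so all replicates placed it above the promoter summit. The other 2 summits, of 831.4 and 420.9, lay at the starts of the neighbours Pal1, 165 bp away, and CG1418, 42 bp away.

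The tin gene (FBgn0004110, 3R, 21378977 to 21381970, plus strand) had its strongest summit at its own promoter, 198 bp upstream of the TSS at 21378779. The signal value was 585.5 and the rank 2171. Signal values in replicates 1, 2 and 3 were 65.9, 119.0 and 405.0, at ranks of 3564, 1990 and 2070. The promoter sequence is the first line printed above. The other summits upstream of tin belonged by distance to mod(mdg4), which encodes a family of chromatin proteins. One of 411.1 lay 77 bp from a TSS of mod(mdg4), and one of 237.3 lay 963 bp from it and was unmatched in replicate 2, with a matching limit of 150 bp.

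The bap gene (FBgn0004862, 3R, 21388880 to 21390449, plus strand) had no summit in the IDR list and none in the pooled list, although every replicate list held a strong one. The summits lay at 21386301, 21386310 and 21386325 in replicates 1, 2 and 3, a spread of 24 bp, upstream of bap and downstream of tin. Their signal values were 143.0, 191.0 and 654.0 and their ranks 757, 612 and 680, higher ranks than those of the tin promoter in any replicate. The −log10 of the authors' q-values was 4.02, 4.14 and 4.13. The site lies in no protein-coding gene, 2579 bp from the bap TSS in replicate 1, and it falls within 10 kb of the tin TSS as well, at 7324 bp. The nearest pooled summit was 7522 bp away, at the promoter of tin, which is 10101 bp from the bap TSS and thus just outside the limit.

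Few sites behaved like the one at bap. Among sites in the strongest 1000 of every replicate list, a limit chosen after the values were seen, 620 were shared within 150 bp, and the bap site was the 1 of them that no pooled peak covered (0.161%). Among sites in the strongest 7241 of every list, 4918 were shared and 95 lay outside every pooled peak (1.93%). Of the 95, 24 had no pooled summit within 1000 bp. Why the pooled list lacks the site was not tested. At the 10 genes, 24 distinct sites were shared by the strongest 7241 summits of all replicates, 23 of them with an IDR summit within 150 bp and the last at bap, so that by this measure all 10 genes had a site, beside 69.5% of all protein-coding genes. The bap site is counted for tin as well. The printed bap sequence holds the letters GGTCACACT, the core of a promoter element called motif 1, with 2 E-boxes.

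The bin gene (FBgn0045759, 3L, 6990622 to 6994447, plus strand) had 1 IDR summit, 1248 bp upstream of its TSS at 6989374. It was the weakest top site among the genes with an IDR summit, with a signal value of 268.2 and rank 5564. In replicates 1, 2 and 3 the signal values were 39.4, 69.2 and 148.0 and the ranks 6514, 4427 and 6722. A further 11 pooled summits below the IDR threshold lay in its region, most of them downstream of the TSS and with a TSS of the gene Mp nearest. The strongest, of 191.2, lay upstream, 8758 bp from the bin TSS and 1820 bp from that of Galphai.

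The how gene (FBgn0264491, 3R, 22042191 to 22079321, plus strand) collected the most summits, 8 in the IDR list and 34 more in the pooled list below the threshold. As many IDR summits or more were found at 0.896% of all protein-coding genes. Its region of 47.1 kb is longer than the median of 20.0 kb, and that share was not adjusted for length. Per 100 kb the how region held 17.0 IDR summits, beside 20.0 at Hand and 9.20 over the summed regions of all protein-coding genes. Of the 8, 4 lay in introns of how, at 1944, 10328, 24598 and 30571 bp from the TSS. For those at 24598 and 30571 bp the nearest TSS was that of CG13408, 13593 and 7620 bp away. The one at 30571 bp, at 22072762, was the strongest, with a signal value of 807.9 and rank 1091. Its signal values in replicates 1, 2 and 3 were 117.0, 126.0 and 594.0, at ranks 1286, 1754 and 874. The summit closest to the how TSS lay 505 bp upstream, just outside the promoter limit, with a signal value of 378.6 and ranks 5284, 3345 and 3912. The 3 remaining summits stood at the starts of pit, which encodes an RNA helicase, and Fadd, which encodes a death-domain adaptor. Their signal values were 733.4, 355.2 and 525.5, and the first pair, 200 bp apart in the pooled data, matched 1 and the same summit in replicates 1 and 2. The intron summit nearest the TSS, of 207.1, was the weakest of the 28 and had no match in replicate 2.

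Hand (FBgn0032209, 2L, 10292679 to 10295385, minus strand) was surrounded by strong summits, none of them nearest to its own TSS. All 4 IDR summits in its region had another gene's TSS nearest. The strongest of the 28 summits was one of these, with a signal value of 1034 and rank 564 at 10298537, in an intron of the deubiquitinase gene CYLD and 270 bp from a CYLD TSS. Its ranks of 459, 516 and 612 in replicates 1, 2 and 3 were close to each other, with signal values of 171.0, 200.0 and 680.0. Another of 967.8 lay 19 bp from the start of nmd, one of 553.6 lay 51 bp from a second CYLD start, and one of 642.5 lay 56 bp from the start of the ubiquitin ligase gene Ufd4. The nearest IDR summit to the Hand TSS was 2964 bp away.

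The nau gene (FBgn0002922, 3R, 23712814 to 23718357, minus strand) had 2 IDR summits, neither at its start. One of 664.1 lay 3786 bp upstream of nau and 518 bp from the TSS of CG10232, at ranks 2944, 3183 and 1431 in replicates 1, 2 and 3. The other, of 258.7, lay 409 bp from CG10301. Replicate 1 alone listed a summit within 500 bp of the nau TSS, at 327 bp, with a signal value of 16.6 and rank 20248.

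Among the structural genes, Mhc (FBgn0264695, 2L, 16766566 to 16788766, plus strand) had the summit with the highest signal value, deep inside the gene. The summit at 16787772 lay in an intron near the 3' end, 19161 bp from the nearest of 5 Mhc TSSs and 2949 bp from the TSS of the next gene, Cyt-b5-r. Its signal value was 811.0 at rank 1079, and its values in replicates 1, 2 and 3 were 139.0, 137.0 and 575.0 at ranks 812, 1461 and 949. It ranked in the upper part of every replicate list. No IDR summit lay within 10 kb of any Mhc TSS, and the pooled list had 2 weak summits there, of up to 53.4.

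Act57B (FBgn0000044, 2R, 20944021 to 20946431, plus strand) was the structural gene whose summits were nearest to its own TSS rather than a neighbour's. A pair of summits lay 5825 and 5620 bp upstream, with signal values of 579.9 and 275.9. The stronger, at 20938196, had 120.0, 131.0 and 339.0 in replicates 1, 2 and 3, at ranks 1237, 1615 and 2763. Another of 232.9 lay 1447 bp upstream, at ranks 11294, 6174 and 6247. At the TSS itself the pooled list held a weak summit of 51.8, 83 bp away and far below the IDR threshold at rank 26654.

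Mlp84B (FBgn0014863, 3R, 7112850 to 7117732, minus strand) had 2 summits in its region, both closer to other genes. One of 652.0 at 7109016 lay 592 bp from the TSS of Alh, a zinc finger gene, and in an intron of it, with ranks of 2214, 645 and 2339 in replicates 1, 2 and 3. The other, of 351.7, lay 60 bp from CG10098. The Mlp84B TSSs were bare in every list, with the nearest summit 4913 bp away, in replicate 3.

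The IDR list keeps peaks on which replicates agree, so matches of its summits between replicates are a description. Of the 28 IDR summits, 26 had a match within 150 bp in all 3 replicate lists and 2 lacked one in replicate 2, and of all IDR summits 6581, or 90.9%, had a match in all 3. Of the 74 pooled summits below the threshold at the 10 genes, 9 had a match in all 3 replicate lists, 26 in 2, 33 in 1 and 6 in none. The median rank of the matched summits was 3086 in replicate 1, 2561 in replicate 2 and 2688 in replicate 3. The Act57B summit at 1447 bp, for one, ranked 11294 in replicate 1 and 6174 in replicate 2. Inside the gene or within 10 kb, all 10 genes had a summit in replicates 1, 2 and 3, beside 92.4%, 91% and 87.3% of all genes, and 9 had one in the pooled list, beside 87%. Within 500 bp of a TSS, replicate 1 listed summits at 3 of the 10 genes (57.2% of all genes), replicate 2 at 5 (55.6%) and replicate 3 at 4 (57.2%). Mef2 and tin were among them each time. The how and Act57B promoters were added in replicates 2 and 3, nau in replicate 1 alone and Mhc in replicate 2 alone. The stronger how promoter summits ranked 3345 in replicate 2 and 3912 in replicate 3, at 413 and 490 bp from the TSS. They are the matches of the how IDR summit that lay 505 bp from the TSS, just outside the promoter limit. The Act57B promoter summits ranked 9806 and 28452, that of Mhc ranked 23861 and that of nau ranked 20248. In the pooled list 4 of 10 genes had a promoter summit (56.1% of all genes), again Mef2 and tin with how and Act57B.

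**Figure D3:**
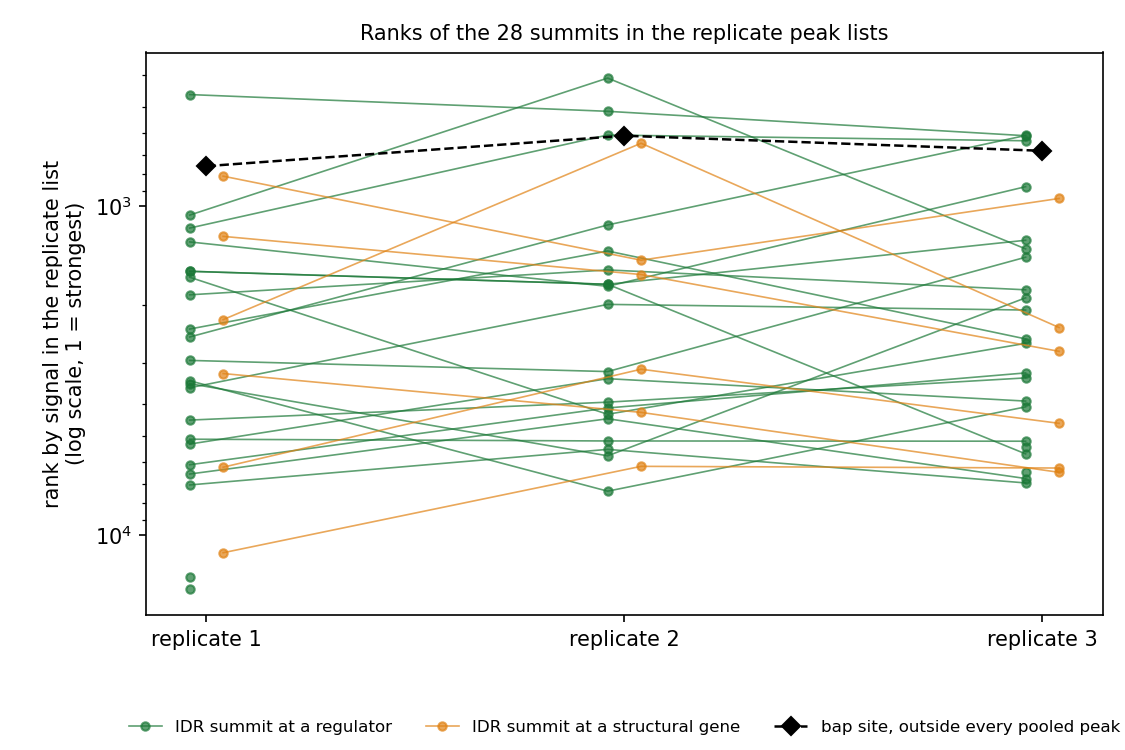
Rank by signal (y axis, log scale, strongest at the top) in each replicate peak list (x axis) of the 28 IDR summits, green at regulators and orange at structural genes. A line joins the ranks of 1 site, and the 2 sites with no match in replicate 2 appear as single points with no line. The bap site (diamonds) keeps ranks of 757, 612 and 680 in spite of lying outside every pooled peak. Ranks in replicate 1 ran from 459 to 14597 at regulators and from 812 to 11294 at structural genes.

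The windows of 100 bp to either side of the 28 summits were searched on both strands for 10 motifs of promoter, insulator and mesoderm factors. CGATA, the core bound by the insulator protein BEAF-32, was found in 13 windows (46.4%), beside 45.4% of all IDR windows and 22.2% of windows centred 1000 bp from them. TATCGATA, the DRE of housekeeping promoters, which contains CGATA, was found in 2, at the start of mod(mdg4) near tin and at a start of pit near how, beside 12.0% of IDR windows and 0.601% of the windows 1000 bp away. The motif 1 core GGTCACACT was found in 2, at the Mef2 promoter and at the start of nmd near Hand, beside 8.96% and 0.318%. The Mef2 promoter summit also had 2 CGATA matches.

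The E-box CANNTG, the letters bound by basic helix-loop-helix factors such as Twist, Hand and Nau, stood in 24 windows (85.7%), beside 63.2% of IDR windows and 65.0% of those 1000 bp away. Its Twist form CATATG, itself an E-box, stood in 1, the tin promoter, beside 5.80% and 5.78%. The Tinman motif TNAAGTG stood in 7 (25.0%), beside 13.3% and 12.4%, and 1 of these was the single bin summit. With C as its second letter the Tinman motif holds the E-box CAAGTG. In the printed bin and Hand lines the Tinman and E-box matches therefore share letters. The Mef2 consensus stood in 4 (14.3%), beside 10.8% and 5.70%, of which 2 lay upstream of Act57B. GAGAG stood in 4 (beside 19.8% and 22.0%), GATAAG in 3 (12.0% and 9.02%), and CAGGTAG, the Zelda motif, in none (0.594% and 1.33%). In windows 1000 bp to the left and right of the 28 summits themselves, the E-box stood in 19 and 18. The Tinman motif stood in 2 and 5 of these, and the Mef2 consensus in 2 and 2. With 28 windows these shares were not tested, and a match shows letters, not binding of the factor. The plot of motif content sets the 3 shares side by side.

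**Figure D4:**
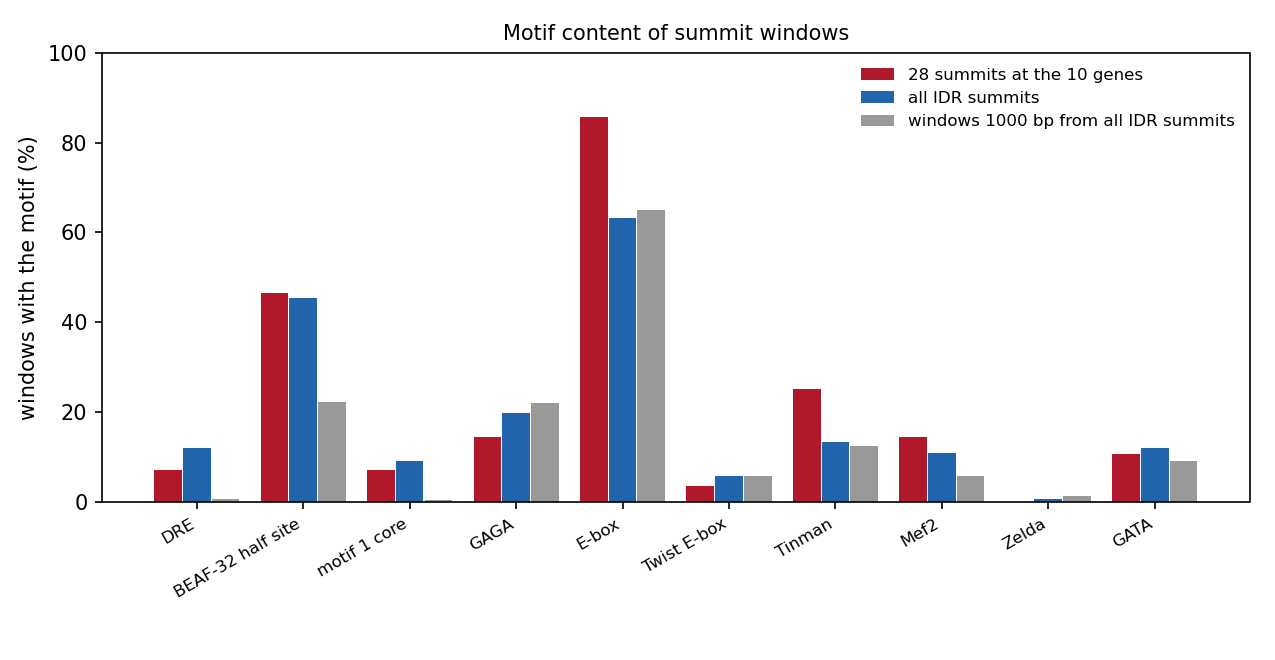
Percentage of windows (y axis) with each of 10 motifs (x axis) among the 28 summits at the mesoderm and muscle genes, all IDR summits and windows centred 1000 bp to either side of all IDR summits (mean of both sides). The share with CGATA is 46.4% at the 28 summits and 45.4% at all IDR summits.

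A wider set of 71 genes of mesoderm and muscle, listed by textbook role, was followed in the same way. In all, 22 of the 71 carried an IDR summit at the promoter and 51 inside the gene or within 10 kb, beside 42.1% and 76.7% of all genes. Muscle attachment genes had 7 of 9 at the promoter, led by the integrin gene mys (1170), the kinase-like adaptor gene Ilk (961.3) and Tsp, which encodes thrombospondin (664.5). The summit of the gene if, also among the 7, lies 496 bp from its own TSS and 3 bp from the start of mRpL22. Myoblast fusion genes had 6 of 11, led by the actin regulator genes WASp (1138) and Vrp1 (800.5) and by mbc (711.4). The mbc summit lies 4 bp from the start of Nup98-96. Sarcomere genes had 5 of 25, among them the tropomyosin gene Tm1 (783.1), tmod (640.6) and Zasp66 (447.9), whose summit lies 34 bp from the start of GAPsec.

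Of 10 muscle identity genes 1 had a promoter summit, org-1 with 522.1, and 2 had a summit inside or within 10 kb. Of 8 cardiac regulators none had a promoter summit, Doc1 and Doc2 included, and 4 had one inside or within 10 kb. Early mesoderm genes had 3 of 8, namely stumps (538.1), an adaptor of FGF signalling, and the FGF genes ths (316.5) and pyr (242.1). Per 100 kb of assigned region the lists held 8.13 summits for attachment, 6.65 for fusion, 5.31 for early mesoderm, 5.30 for sarcomere, 1.84 for cardiac and 1.44 for muscle identity genes, all below the 9.20 of all protein-coding genes. That 9.20 counts a summit once for every gene it was assigned to, with 30350 pairs from 7241 IDR summits. It is therefore not a density along the chromosome. The median region of these lists ran from 21.4 to 33.4 kb, beside 20 kb for all genes. By share, attachment genes had 77.8% at the promoter and 88.9% inside or within 10 kb, and fusion genes 54.5% and 90.9%. Both lists lay above the 42.1% and 76.7% of all genes. Sarcomere genes, with 20% and 84%, lay below at the promoter and close to all genes at the wider distance. Early mesoderm genes, with 37.5% and 75%, lay close to all genes at both. Muscle identity genes, with 10% and 20%, and cardiac regulators, with 0% and 50%, lay below at both. The differences between lists were not tested.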

How the data were processed

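ChIP-seq peak lists of 3 biological replicates in 1 group were used. Per the deposited text files, each replicate list derives from that library and a control, the pooled list from all 3 libraries and the control, and the IDR list from these lists. The authors deposited for each peak a signal value, the −log10 of a q-value and a summit offset. The peak caller, aligner and IDR cutoff were not given in the sources used here. Coordinates are dm6, per the labels, and all peaks lay within the arm lengths of the reference.

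Genes and TSSs came from Ensembl release 115 (BDGP6.54), and all 10 gene spans were identical in RefSeq. Analyses used 2L, 2R, 3L, 3R, 4 and X, with Python 3.11.15, numpy 2.4.6 and pandas 2.3.3. Summits of 2 lists within 150 bp were matched. The scripts were tested on simulated data. Of the 71 genes of the wider lists, 1 was matched by a synonym. The genes, lists and motifs were chosen with earlier results of these data known. Genes named from the wider lists are up to 3 with the strongest promoter summits, or the first 2 in alphabetical order. The gene if was named as well, for the neighbour at its summit.

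Alternatives covered other distances, the nearest TSS, the 3620 strongest IDR peaks, all pooled peaks, sites shared by the replicates, leaving out each replicate, other matching distances and other motif windows. With 1 group no test between groups was possible, and with lists of fixed length their lengths carry no information.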

Additional observations from a re-analysis of the deposited data

How the results depend on the processing

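The count of summits followed the rule that assigned them. It was 18 within 5 kb or inside the gene, 13 within 2 kb or inside, 16 in the 3620 strongest IDR peaks and 102 with all pooled peaks. In that order 8, 6, 8 and 9 of the 10 genes had a summit, beside 65.3%, 53.0%, 63.1% and 87.0% of all genes. Within 500 bp of a TSS and without gene bodies, 2 summits at 2 genes were left, both regulators and 0 structural genes, beside 42.1% of all genes. Counted for the nearest TSS alone, 10 summits at 5 genes were left, 1 of them structural, beside 38.3%. With all pooled peaks 4 genes had a promoter summit.

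Sites shared by the strongest summits of 2 replicates, with the third left out, were found at 10 to 10 genes. These were 7 to 7 regulators and 3 to 3 structural genes, beside 71.3 to 73.1% of all genes, with 27 to 28 pairs of gene and site. By the same rule 2 to 3 genes had a promoter site, for which the share of all genes was not counted. The 10 genes include bap, which had no IDR summit. The 26 summits found in all replicates became 18 when matched within 50 bp, 27 within 300 bp and 24 among the strongest summits of each list. Of 20 motif counts in narrower or wider windows, 9 moved by more than 1.5 times. Among them, the Tinman count was 3 within 50 bp of the summit, and the Mef2 count was 2 within 50 bp and 11 within 250 bp. No paired analysis was possible because there is 1 group. Peak lists cannot show binding below the weakest listed peak, and read depth is unknown.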
